A study of Mus musculus with 8 samples.

Results

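The 37 genes described here encode proteins of homologous recombination, the Fanconi pathway, mismatch repair and the DNA damage checkpoint. They were given by name and taken from the count table wherever the symbol was identical, which found all 37 among 55471 genes. They fell into 4 pathways, with 17 recombination genes, 12 Fanconi genes, 2 mismatch repair genes and 6 checkpoint genes. Polyadenylated RNA had been sequenced from SV-LEC, a mouse line of mesenteric lymphatic endothelial origin that was immortalized with SV40, in 8 libraries. Of these, 4 came from untreated cells and 4 from cells that had received 10 ng/ml of TGFβ1 over 72 h, and all of them shared the SV40-immortalized genotype. The study calls these samples technical replicates, so p-values measure the technical spread between them.

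The comparison asked how RNA of these cells responded to TGFβ1. Libraries held between 18952504 and 26386941 counts. The first principal component, which separated the groups, carried 88.8% of the variance between libraries. All samples came from this line, and several defining markers of its labelled cell type were absent or nearly so. Of 7 lymphatic endothelial markers, Pdpn and Flt4 passed the filter on low counts. Prox1, the regulator of lymphatic identity, had 0 to 2 counts per library and Lyve1 had 0 to 3. Among 8 general endothelial markers Kdr, Tek and Eng passed, whereas Cdh5 had 0 to 2 counts and Pecam1 1 to 5. The summed level of the 8 fibroblast and mural markers was 851 to 904 CPM (counts scaled to a common library size by TMM) in untreated and 1207 to 1276 CPM in treated libraries. Its rise came mostly from Acta2, which went from 264 ± 9.92 CPM to 981 ± 38.4 CPM, while Dcn, Pdgfra and Thy1 were lower, and of the 6 markers tested 3 were higher and 3 lower. The part of these markers in the values below was not tested.

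As background, homologous recombination mends broken chromosomes by copying the sister chromatid, and it needs resected ends, a recombinase filament and enzymes that resolve joined molecules. The Fanconi pathway recognizes crosslinks between DNA strands and ubiquitylates the Fancd2 and Fanci proteins. The kinases Atm and Atr sense breaks and stalled forks and act through Chek2 and Chek1, which slow the cell cycle. Many of these genes are transcribed mostly in proliferating cells, and the large T antigen of SV40 binds both p53 and RB.

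Of the 37 genes, 28 were lower after TGFβ1, 4 were higher and 5 were not called, so that 32 of 37 were called in either direction, against 75.6% of all genes tested. A call means a false discovery rate (FDR) under 0.05, from the likelihood ratio test of edgeR after Benjamini-Hochberg correction across 13818 genes. The share lower was 75.7%, against 38% of all genes tested, and the share higher was 10.8%, against 37.6%. Rad51ap1, Fancd2, Bard1, Rad51b, Chek1, Rad51c, Rad54l, Blm, Brca1, Eme1, Ube2t and Clspn were lower by more than 1 on the log2 scale. These 12 genes make up 32.4% of the members, whereas 6.56% of all genes fell that far. The 4 higher genes were Msh6, Mus81, Atm and Rad51d, none of which rose by more than 1. The median log2 fold change of the members was -0.76, and that of all genes tested was -0.01. In bulk RNA, fewer cells of a type and less RNA per cell cannot be told apart.

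In 29 members every treated library was below every untreated library, in 4 every treated library was above, and in 4 the groups overlapped. Over all genes tested, 35.1% were separated downward, 34.7% upward and 69.8% either way. The members together made up 1802 to 1896 CPM in untreated and 1396 to 1433 CPM in treated libraries. Their counts per library ran from 45, for Fancf, to 10072, for Topbp1. Replicates were close, and the widest coefficient of variation within a group was 20.7%, for Fancf in treated cells.

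**Figure D1:**
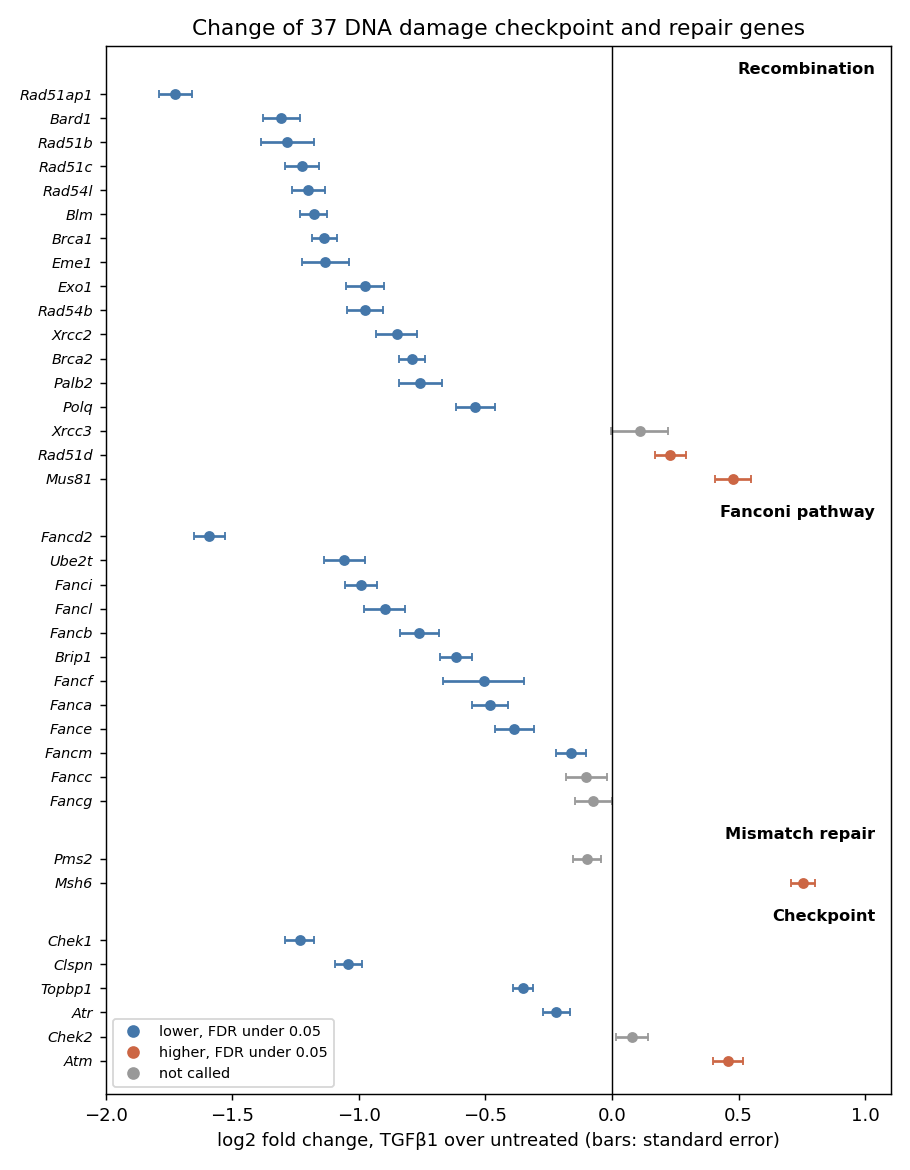
Log2 fold change of each of the 37 genes after TGFβ1, by pathway and ordered by size, with bars for the standard error of the fit. Blue points are lower, red points higher and grey points not called at an FDR under 0.05, and the 4 red points are Rad51d, Mus81, Msh6 and Atm.

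Promoter sequence is shown for the called members that fell or rose furthest and have an entry in the RefSeq promoter table (build GRCm38.p6), and for Eme1, whose ratio to its partner Mus81 changed most. Each window runs 5′ to 3′ on the strand of the gene, from 250 bases before to 50 bases after its annotated start. Capitals mark words of the E2F, CHR, NF-Y and SMAD motifs that are spelled out further down.
Rad51ap1, chr6:126939538-126939837, minus strand: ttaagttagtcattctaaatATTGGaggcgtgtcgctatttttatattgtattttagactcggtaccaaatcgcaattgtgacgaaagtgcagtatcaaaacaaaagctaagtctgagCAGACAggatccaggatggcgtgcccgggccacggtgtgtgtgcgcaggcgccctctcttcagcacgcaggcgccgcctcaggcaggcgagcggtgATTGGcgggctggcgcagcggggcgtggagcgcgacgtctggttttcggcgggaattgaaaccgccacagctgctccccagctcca
Bard1, chr1:71102923-71103222, minus strand: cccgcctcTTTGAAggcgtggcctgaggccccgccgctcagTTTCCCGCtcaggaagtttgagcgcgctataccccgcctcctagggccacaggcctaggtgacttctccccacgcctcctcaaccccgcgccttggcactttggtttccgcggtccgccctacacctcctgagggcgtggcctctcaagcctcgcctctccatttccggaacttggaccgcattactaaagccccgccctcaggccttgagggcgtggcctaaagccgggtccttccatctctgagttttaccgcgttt
Eme1, chr11:94653694-94653993, minus strand: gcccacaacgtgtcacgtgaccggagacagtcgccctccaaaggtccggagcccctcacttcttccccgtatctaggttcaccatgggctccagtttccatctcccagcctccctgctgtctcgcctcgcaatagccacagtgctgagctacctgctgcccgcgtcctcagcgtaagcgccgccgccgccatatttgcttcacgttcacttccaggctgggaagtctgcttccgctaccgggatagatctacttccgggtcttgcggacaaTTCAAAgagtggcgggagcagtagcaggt
Msh6, chr17:87974800-87975099, plus strand: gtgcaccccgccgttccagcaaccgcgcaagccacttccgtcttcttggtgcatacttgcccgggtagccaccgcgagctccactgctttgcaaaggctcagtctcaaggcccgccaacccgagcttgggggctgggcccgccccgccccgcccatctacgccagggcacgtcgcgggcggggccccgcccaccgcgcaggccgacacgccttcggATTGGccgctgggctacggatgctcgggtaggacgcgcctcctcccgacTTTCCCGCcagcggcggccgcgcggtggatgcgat
Mus81, chr19:5488330-5488629, minus strand: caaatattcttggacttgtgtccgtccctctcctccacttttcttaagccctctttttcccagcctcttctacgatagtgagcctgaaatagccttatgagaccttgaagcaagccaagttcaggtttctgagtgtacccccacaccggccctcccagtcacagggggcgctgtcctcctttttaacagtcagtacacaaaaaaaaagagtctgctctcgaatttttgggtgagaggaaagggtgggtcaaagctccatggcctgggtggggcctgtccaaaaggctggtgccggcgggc
Atm, chr9:53536622-53536921, minus strand: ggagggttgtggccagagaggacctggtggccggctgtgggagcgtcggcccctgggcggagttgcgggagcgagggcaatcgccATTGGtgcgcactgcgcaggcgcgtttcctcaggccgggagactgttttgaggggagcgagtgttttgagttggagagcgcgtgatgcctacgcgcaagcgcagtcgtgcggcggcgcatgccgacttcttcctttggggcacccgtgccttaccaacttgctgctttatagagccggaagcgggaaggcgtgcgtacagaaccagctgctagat
The falling Rad51ap1 carried 2 NF-Y words and 1 SMAD word, Bard1 carried 1 E2F and 1 CHR word, and Eme1 carried 1 CHR word. Of the rising genes, Msh6 carried 1 E2F and 1 NF-Y word, Atm carried 1 NF-Y word, and the window of Mus81 held no word of these motifs.

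Recombination genes were mostly lower, with 14 of 17 called lower, 2 higher and 1 not called, and a median log2 fold change of -0.98. Their share lower was 82.4%, against 38% of all genes tested. Rad51ap1, which stimulates strand pairing by the recombinase, fell furthest of all members. Its level was 56.3, 54.3, 57.3 and 50.5 CPM in untreated libraries 1 to 4, and 16.8, 15.4, 17.3 and 16.6 CPM in treated libraries 1 to 4. The lowest untreated library was thus far above the highest treated library, and the gene (ENSMUSG00000030346, chr6:126923050-126939587) was 3.31-fold lower, with a log2 fold change of -1.73 (SE 0.065, FDR = 2.41e-158).

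Brca1 and Bard1 encode the paired subunits of a ubiquitin ligase that favours end resection. Brca1 (chr11:101488764-101551955) was at 83.7, 83.9, 85.4 and 89.1 CPM in untreated libraries and at 39.4, 38.9, 40.5 and 37.0 CPM in treated ones. Bard1 (chr1:71027498-71103146) was at 25.7, 25.3, 25.3 and 26.8 CPM and then at 10.7, 10.7, 11.1 and 9.32 CPM. Both genes were well separated between the groups, and Brca1 fell by 1.14 and Bard1 by 1.31 on the log2 scale (SE 0.050 and 0.074). Because Bard1 fell further, the log2 ratio of Brca1 to Bard1 moved from 1.71 ± 0.021 to 1.85 ± 0.058 (SD, n = 4 each), a difference of 0.14 (two-sided exact permutation p = 0.0286, adjusted over 14 pairs 0.0333).

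Brca2 loads the recombinase on resected DNA, and Palb2 links it to Brca1. Brca2 (chr5:150522630-150570329) was at 67.4 ± 1.92 CPM in untreated and 39.0 ± 1.86 CPM in treated cells (SD, n = 4), a log2 fold change of -0.79. Palb2 (chr7:122107262-122132985) was at 14.7 ± 0.382 CPM and 8.75 ± 0.856 CPM, a log2 fold change of -0.76. The ratio of these partners was not separated between the groups. The log2 ratio of Brca2 to Palb2 was 2.16 ± 0.056 before and 2.10 ± 0.085 after TGFβ1, its values overlapped, and its difference of -0.06 was within the spread (exact permutation p = 0.343). Palb2 had the lowest mean level per length of all members in both groups, at 2.01 and 1.19 RPKM. RPKM is CPM divided by the length of all annotated exons of the gene in kilobases, so it depends on the annotation. In untreated cells Palb2, with an SD of 0.052, and Fancc, at 2.06 ± 0.136 RPKM, were within their spreads of each other.

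The recombinase paralogs did not move together. Rad51b, Rad51c, Rad51d and Xrcc2 encode the subunits of the BCDX2 complex, and Rad51c also pairs with Xrcc3. Rad51c (chr11:87376645-87404954) was at 30.6, 32.3, 28.6 and 30.6 CPM in untreated libraries and at 13.1, 12.4, 13.1 and 13.6 CPM in treated ones, a fall of 2.34-fold. Rad51b was at 13 ± 0.738 CPM and then 5.36 ± 0.664 CPM (log2 fold change -1.28), and Xrcc2 was at 31.3 ± 2.87 CPM and then 17.4 ± 1.30 CPM (log2 fold change -0.85). Rad51d (chr11:82876434-82890614) went the other way, from 26.4, 27.5, 29.2 and 29.9 CPM to 31.4, 35.2, 33.1 and 32.5 CPM. Its groups did not overlap, and the rise was small, at 0.23 on the log2 scale (SE 0.061, FDR = 0.000305). Xrcc3 was at 7.95, 6.65, 8.04 and 7.20 CPM in untreated libraries and at 7.25, 8.03, 9.40 and 7.45 CPM in treated ones. The groups of Xrcc3 overlapped, and its log2 fold change was 0.11, with a 95% interval from -0.11 to 0.33.

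Within these complexes the ratios therefore shifted. The log2 ratio of Rad51c to Xrcc3, the partners of the CX3 complex, went from 1.96 ± 0.184 to 0.67 ± 0.179, a difference of -1.29. That of Rad51d to Xrcc2 went from -0.15 ± 0.116 to 0.91 ± 0.139, a difference of 1.05. In both pairs all treated libraries lay on 1 side of all untreated ones (SD, n = 4 each, exact permutation p = 0.0286, adjusted 0.0333).

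Rad54l and Rad54b encode translocases that act on recombinase filaments. Rad54l was at 47.4 ± 3.24 CPM in untreated and 20.7 ± 0.841 CPM in treated cells, a log2 fold change of -1.20. Rad54b was at 28.2 ± 1.66 CPM and 14.3 ± 0.962 CPM, a log2 fold change of -0.97. The reads of Rad54b are uncertain, since 35.8% of its exonic bases are shared with Fsbp on the same strand, and Fsbp itself had a log2 fold change of -1.38. The log2 ratio of Rad54l to Rad54b fell by 0.22 (adjusted permutation p = 0.0333).

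The enzymes that process ends and joined molecules also split. Blm, a helicase that separates joined molecules, was at 56.0, 59.4, 58.5 and 60.8 CPM in untreated libraries and at 25.7, 25.7, 25.7 and 26.6 CPM in treated ones. Exo1, a nuclease of end resection, was at 38.4, 40.5, 44.9 and 48.4 CPM and then at 22.3, 21.6, 21.5 and 22.0 CPM. Both were lower in every treated library, with log2 fold changes of -1.18 and -0.98. Polq, the polymerase of microhomology-mediated end joining, had the smallest fall of the called recombination genes, from 21.7 ± 1.12 CPM to 15.0 ± 1.14 CPM (log2 fold change -0.54).

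Mus81 and Eme1 encode the catalytic and the partner subunit of a structure-selective nuclease. Eme1 (chr11:94644996-94653964) was at 14.3, 15.7, 16.1 and 16.5 CPM in untreated and at 6.55, 7.11, 7.87 and 6.99 CPM in treated libraries. Mus81 (chr19:5482345-5488402) was at 23.5, 20.6, 21.7 and 18.9 CPM and rose to 27.4, 29.4, 31.2 and 29.9 CPM. The subunits thus moved in opposite directions, Eme1 by -1.13 (SE 0.092) and Mus81 by 0.48 (SE 0.071) on the log2 scale. Their log2 ratio went from 0.42 ± 0.209 to 1.98 ± 0.041, and the difference of 1.55 was the largest of the 14 pairs (exact permutation p = 0.0286, the smallest that 4 against 4 libraries can give).

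**Figure D2:**
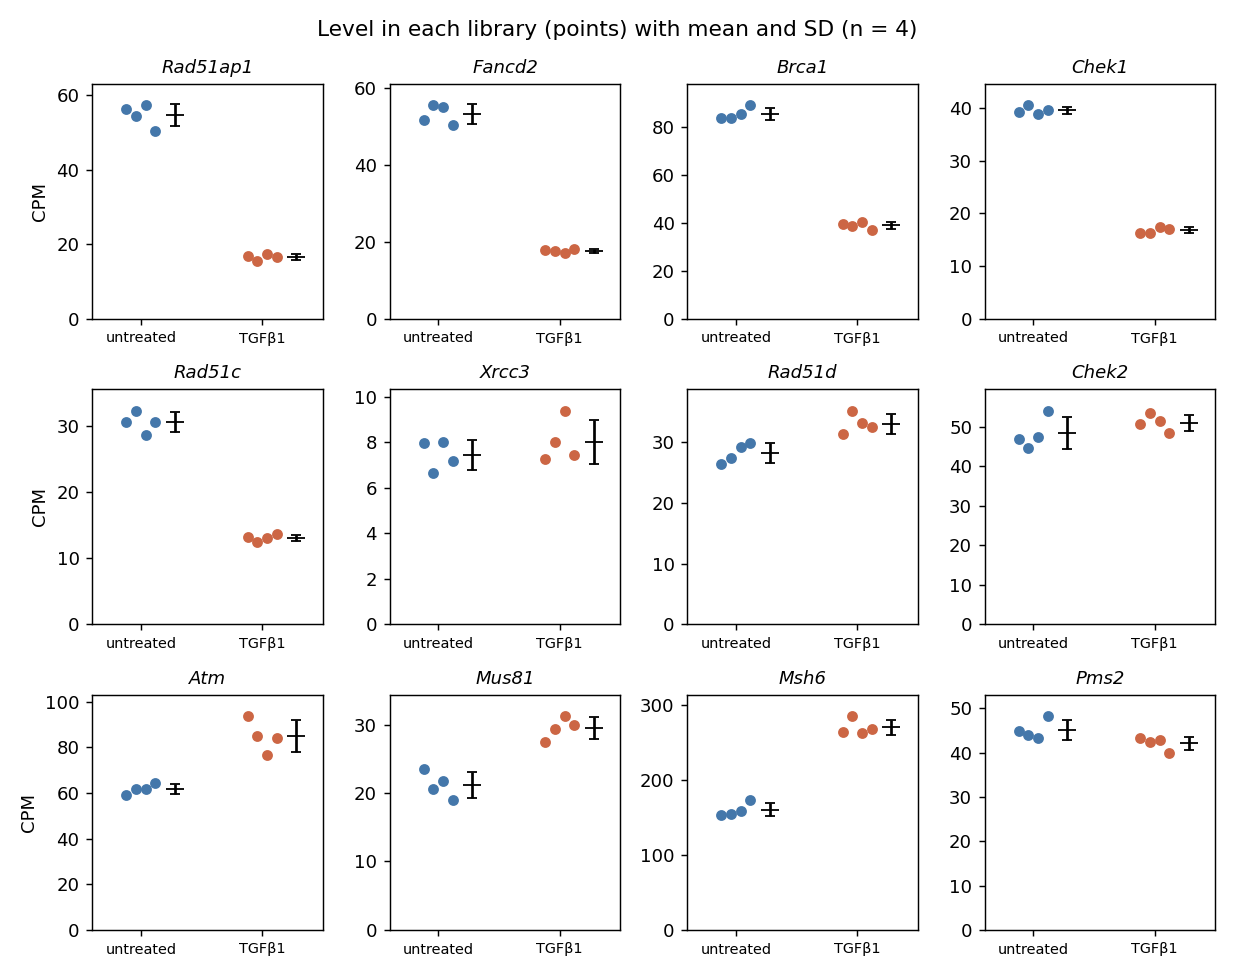
CPM of 12 members in each library, untreated in blue and TGFβ1 in red, with the mean and SD of 4 libraries in black and every axis starting at 0. Rad51ap1, Fancd2, Brca1, Chek1 and Rad51c are far lower in all treated libraries, Xrcc3 and Chek2 overlap, Pms2 is only just separated, and Rad51d, Atm, Mus81 and Msh6 are higher.

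In the Fanconi pathway 10 of 12 genes (83.3%) were lower, against 38% of all genes tested. Another 2 were not called and none was higher, against 37.6% over all genes, and the median log2 fold change was -0.56. No Fanconi gene was higher at an unadjusted p under 0.05 in edgeR either, nor by the quasi-likelihood test or DESeq2. The fall was deepest in Fancd2, whose ubiquitylated protein marks crosslink damage with Fanci. Fancd2 (ENSMUSG00000034023, chr6:113531682-113597017) was at 51.7, 55.6, 55.2 and 50.3 CPM in untreated libraries and at 17.8, 17.7, 17.0 and 18.2 CPM in treated ones. It was 3.01-fold lower, with a log2 fold change of -1.59 (SE 0.061, FDR = 7.05e-152). Fanci (chr7:79391929-79450264) was at 37.6, 38.3, 39.8 and 42.3 CPM and then at 20.7, 18.4, 20.1 and 20.3 CPM, a 1.99-fold fall. The log2 ratio of Fancd2 to Fanci, in CPM that are not scaled to length, went from 0.43 ± 0.124 to -0.16 ± 0.081 (adjusted permutation p = 0.0333). Per length, Fancd2 was at 6.70 ± 0.327 and Fanci at 6.84 ± 0.366 RPKM before TGFβ1, within their spreads of each other. Afterwards they were at 2.23 ± 0.060 and 3.44 ± 0.178 RPKM. The sign of the CPM ratio therefore does not show which RNA was more abundant.

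Ube2t and Fancl, which encode the conjugating enzyme and the ligase that ubiquitylate Fancd2 and Fanci, were both lower. Ube2t was at 25.1, 24.9, 26.6 and 23.5 CPM and then at 12.5, 10.2, 12.5 and 12.7 CPM (log2 fold change -1.06). Fancl was at 18.0, 17.1, 17.1 and 17.1 CPM and then at 9.74, 9.79, 9.59 and 8.23 CPM (log2 fold change -0.90). Their log2 ratio overlapped between the groups and differed by -0.17 (exact permutation p = 0.2, adjusted 0.215), which does not show that they fell equally.

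The other core complex genes changed less and unevenly. Fancb, on chromosome X, was at 18.8 ± 1.05 CPM in untreated and 11.1 ± 0.212 CPM in treated cells, a log2 fold change of -0.76. Fanca was at 57.7 ± 4.45 CPM and 41.3 ± 3.39 CPM (-0.48 on the log2 scale), and Fance was at 19.1 ± 0.950 CPM and 14.6 ± 1.00 CPM (-0.39). Fancf had the fewest counts of all members and the widest error, at 4.44 ± 0.588 CPM and 3.09 ± 0.641 CPM (log2 fold change -0.51, SE 0.16, FDR = 0.00236). Fancc and Fancg overlapped between the groups, with log2 fold changes of -0.10 (95% interval -0.26 to 0.06) and -0.07 (95% interval -0.22 to 0.07). Fanca fell relative to its direct binding partner Fancg, the log2 ratio going from 1.37 ± 0.173 to 0.97 ± 0.067 (adjusted permutation p = 0.0333).

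Fancm, the translocase that anchors the core complex to chromatin, was at 35.5, 39.5, 35.1 and 37.1 CPM in untreated and at 34.1, 31.9, 32.1 and 33.7 CPM in treated libraries. Its groups touched closely without overlap, and the log2 fold change of -0.16 (FDR = 0.00791) became -0.13 (FDR = 0.0530) without untreated replicate 2. Brip1, a helicase that binds Brca1, fell from 48.7 ± 3.25 CPM to 31.8 ± 1.68 CPM, or by 0.62 on the log2 scale. Whether reads were counted by strand is not given in the sources used here, and some members share exonic bases with a gene on the opposite strand. The shared part was 16.4% for Fancc with Gm16133, 16% for Fanci with Polg, 15.4% for Rad54l with Lrrc41, 15% for Fancf with Gas2, 13.7% for Fancl with Vrk2 and 10.5% for Fanca with Zfp276. Gm16133 did not pass the filter on low counts. Of the other neighbours Gas2 had the largest change, a log2 fold change of -1.72, so the value of Fancf is uncertain. Smaller parts were shared by Eme1, 8% with Lrrc59 (log2 fold change 0.53), and by Mus81, 4.85% with Efemp2. The ratio of Mus81 to Eme1 carries the same limit.

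Mismatch repair had no member called lower by edgeR's likelihood ratio test, and 0 of 2 at an unadjusted p under 0.05, by the quasi-likelihood test or by DESeq2. Msh6, which recognizes mismatched bases as part of a MutS heterodimer, rose most of all members. Msh6 (ENSMUSG00000005370, chr17:87975062-87990892) was at 153, 155, 159 and 173 CPM in untreated libraries and at 265, 285, 262 and 268 CPM in treated ones. Every treated library was far above every untreated one, and the gene rose 1.69-fold, or 0.75 on the log2 scale (SE 0.048, FDR = 4.25e-54). Pms2, the nuclease subunit of a MutL heterodimer, was at 44.9, 44.0, 43.3 and 48.3 CPM and then at 43.3, 42.4, 42.9 and 39.9 CPM. Its log2 fold change of -0.10 was not called (FDR = 0.0895), although its libraries just did not overlap. The log2 ratio of Msh6 to Pms2 rose from 1.82 ± 0.044 to 2.67 ± 0.078 (adjusted permutation p = 0.0333).

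The rest of the mismatch repair list was mostly lower. Of its 5 genes, 4 were lower, with log2 fold changes between -0.66 and -0.36, and 1 was higher. The higher gene was Msh3, the alternative partner in the MutS heterodimer for larger loops, which went from 41.2 ± 3.81 CPM to 56.7 ± 1.65 CPM (log2 fold change 0.46). The MutL genes Pms1 and Mlh3 were among the lower ones, at -0.56 and -0.36. Msh3, Pms1 and Mlh3 are named here after their values had been seen.

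Among the checkpoint genes 4 of 6 were lower, 1 was higher and 1 was not called, with a median log2 fold change of -0.29. Over all genes tested 38% were lower and 37.6% higher, and counts among 6 genes are small. The members from the arm of Atr and Chek1, which answers stalled forks, were all lower. Chek1 (ENSMUSG00000032113, chr9:36708482-36727065) was at 39.2, 40.6, 39.0 and 39.6 CPM in untreated and at 16.3, 16.3, 17.5 and 17.1 CPM in treated libraries, a 2.35-fold fall (log2 fold change -1.23, SE 0.058). Clspn, the adaptor that brings Chek1 to Atr, was at 71.6, 75.9, 76.6 and 79.9 CPM and then at 37.8, 36.6, 37.1 and 36.3 CPM (log2 fold change -1.04). Atr itself was only slightly lower, at 62.4, 64.3, 59.3 and 60.0 CPM and then at 55.1, 54.8, 52.1 and 49.7 CPM (log2 fold change -0.22, FDR = 5.99e-05). Topbp1, the activator of Atr, was at 387, 378, 378 and 403 CPM and then at 303, 302, 302 and 305 CPM (log2 fold change -0.35). No treated library reached the untreated range in any of these genes, as in 35.1% of all genes tested.

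Atm and Chek2, the members from the arm that answers broken ends, were not lower. Atm (ENSMUSG00000034218, chr9:53439149-53536740) rose from 59.0, 62.0, 61.7 and 64.4 CPM to 93.8, 85.1, 76.8 and 84.2 CPM. Although the treated libraries were spread widely, none was as low as an untreated library (log2 fold change 0.46, SE 0.060, FDR = 7.66e-14). Chek2 was at 46.9, 44.7, 47.5 and 54.1 CPM in untreated and at 50.6, 53.4, 51.4 and 48.3 CPM in treated libraries, and the groups overlapped. Its log2 fold change was 0.08, with a 95% interval from -0.05 to 0.20. Untreated replicate 4 held the highest Chek2 level of its group, and without it the log2 fold change was 0.13 (FDR = 0.0223), which would be called. Atm and Chek2 do not stand for the whole arm. Outside the members, H2afx (-0.83), Mre11a (-0.54), Mdc1 (-0.36) and Rnf168 (-0.32) were lower. Nbn (-0.09) was not called, and Rad50 (0.12) and Trp53bp1 (0.45) were higher. These genes are named after their values had been seen. On the opposite strand, H2afx shares 10.2% of its exonic bases with Gm44335 and Trp53bp1 shares 15% with Tubgcp4.

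Partners between and within the arms were compared by their ratio inside each library, on CPM + 0.5. The log2 ratio of Chek1 to Chek2 went from -0.28 ± 0.127 to -1.57 ± 0.092, and that of Atr to Atm from -0.01 ± 0.086 to -0.68 ± 0.10 (SD, n = 4 each). Within the arm of Atr, the ratio of the adaptor to the activator, Clspn to Topbp1, went from -2.34 ± 0.058 to -3.02 ± 0.028. Each of these 3 differences separated all libraries (exact permutation p = 0.0286, adjusted 0.0333). Over the 14 partner pairs, 12 had an adjusted p under 0.05, of which 8 ratios were lower and 4 were higher after TGFβ1. The exceptions were Brca2 with Palb2 and Ube2t with Fancl. Both partners had fallen in these pairs, as they had in some that separated, such as Brca1 with Bard1 and Blm with Exo1. How often the ratio of any other 2 genes would separate was not computed, and 69.8% of all genes tested were themselves separated between the groups. The count of 12 is therefore not read as particular to these complexes.

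**Figure D3:**
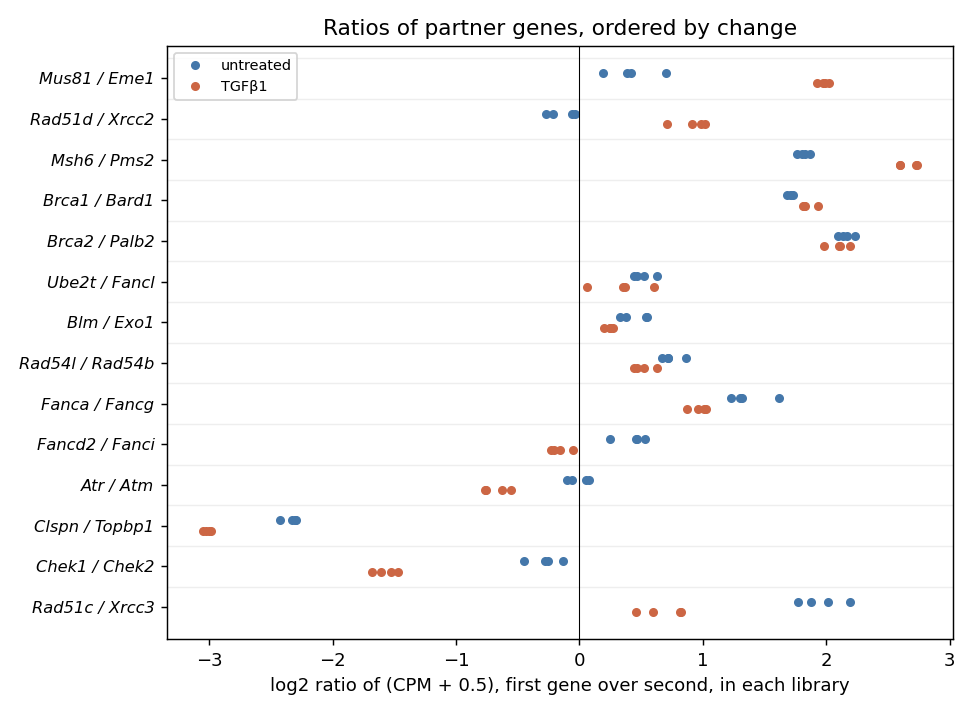
Log2 ratio of CPM + 0.5 of the first gene to the second in each library for 14 partner pairs, untreated in blue and TGFβ1 in red, ordered by the change. Mus81 over Eme1 shifts furthest to the right and Rad51c over Xrcc3 and Chek1 over Chek2 furthest to the left, while Brca2 over Palb2 and Ube2t over Fancl overlap.

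Compared per length, Msh6 led in both groups, at 36.8 ± 2.03 RPKM before and 62.1 ± 2.40 RPKM after TGFβ1, followed by Topbp1 at 34.4 ± 1.05 and 27.0 ± 0.132 RPKM and by Chek2 at 16.1 ± 1.35 and 17.0 ± 0.694 RPKM (SD, n = 4). In untreated cells Msh6 and Topbp1 were within their spreads of each other, and after treatment they were far apart. Rad51ap1 was in place 4 of 37 at 11.3 RPKM in untreated cells and in place 17 at 3.43 RPKM in treated cells. Fancd2 went from place 11 to place 31, whereas Rad51d went from place 8 to place 4 and Mus81 from place 20 to place 5.

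The rest of the repair and checkpoint genes were also more often lower than higher. Of 113 tested, 67 (59.3%) were lower and 23 (20.4%) higher, against 38% and 37.6% of all genes tested. Their median log2 fold change was -0.24. Recombination and fork repair genes outside the members were lower in 19 and higher in 4 of 32, with a median of -0.33. The largest falls were in Parpbp (-1.90), Rmi2 (-1.71), Gen1 (-1.20), Mcm8 (-1.20) and Recql4 (-1.15). Gen1 is a resolvase of recombination junctions and Rmi2 a subunit of the complex around Blm, and both were lower, as Eme1 and Blm were. Rmi2 was weakly expressed, at 2.99 CPM in untreated cells and with 14 to 26 counts in treated libraries. Of that complex, Top3a was only slightly lower (-0.30) and Rmi1 was not called (-0.01, FDR = 0.894). Top3a and Rmi1 are named after their values had been seen. Parpbp shares 12.1% of its exonic bases with Pmch on the opposite strand, and Recql4 shares 9.72% with Mfsd3.

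Other Fanconi and crosslink repair genes were split, with 8 lower and 5 higher of 15 and a median of -0.14. End joining genes were lower in 6 and higher in 5 of 13, with a median of -0.08. Base and nucleotide excision repair genes were lower in 14 and higher in 8 of 28, with a median of -0.16. In that list Neil3, a glycosylase that also acts on crosslinks, had a log2 fold change of -2.21 and Ung, which removes uracil, of -1.11, while the nuclease gene Ercc5 rose by 1.41. The shares lower in end joining and excision repair, 46.2% and 50%, were closer to the 38% over all genes than that of the members.

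The other checkpoint genes were lower in 16 and higher in 0 of 20 tested, with a median of -0.35. Over all genes tested, 38% were lower and 37.6% higher. The count of higher genes was also 0 in edgeR at an unadjusted p under 0.05, by the quasi-likelihood test and by DESeq2. The largest falls included the phosphatase genes Cdc25b (from 64.2 ± 2.67 CPM to 13.9 ± 1.03 CPM, log2 fold change -2.21) and Cdc25c (-1.69), and the inhibitory kinase genes Pkmyt1 (-1.16) and Wee1 (-1.03). Ticrr, a regulator of origin firing, was at -1.39. Cdc25c shares 12.7% of its exonic bases with Gm3550 on the opposite strand, and Pkmyt1 shares 8.76% with Paqr4. Cdc25a, a further phosphatase gene of this family that is named after its value had been seen, was at 52.7 and 52.3 CPM and was not called (log2 fold change -0.01, FDR = 0.862).

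Replication and mitosis genes, which are used in dividing cells, were given beside the members because they are the most similar lists. Of 39 replication genes 38 were lower, with a median of -0.57, and the largest falls were in Gins1 (-1.49) and Mcm5 (-1.35). The only higher gene of that list was Orc1, at 0.52, and it is named after its value had been seen and shares 10.8% of its exonic bases with a gene on the opposite strand. All 30 mitosis genes were lower, with a median of -1.85, between -2.43 and -1.01. The recombination members, with a median of -0.98, thus lay between these lists, and the checkpoint members, with a median of -0.29, above both. How far the members followed the share of dividing cells was not tested.

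Genes listed as targets of p53, a transcription factor that DNA damage can activate, went the other way. Of 20 targets 17 (85%) were higher, against 37.6% of all genes tested. Another 1 was lower and 2 were not called, and the median was 0.94. Mdm2, the ubiquitin ligase of p53, rose from 306 ± 30.0 CPM to 1429 ± 61.6 CPM (log2 fold change 2.22), and Btg2, Ccng1, Fas and Tnfrsf10b rose by 1.42, 1.35, 1.35 and 1.32. Cdkn1a, the inhibitor of cyclin-dependent kinases, rose from 746 ± 48.3 CPM to 1638 ± 56.0 CPM (log2 fold change 1.14). Gadd45a was the exception, at -1.33, and 19.1% of its exonic bases are shared with a gene on the opposite strand. Neither p53 activity nor DNA damage was measured, and the part of p53 in these changes was not tested.

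**Figure D4:**
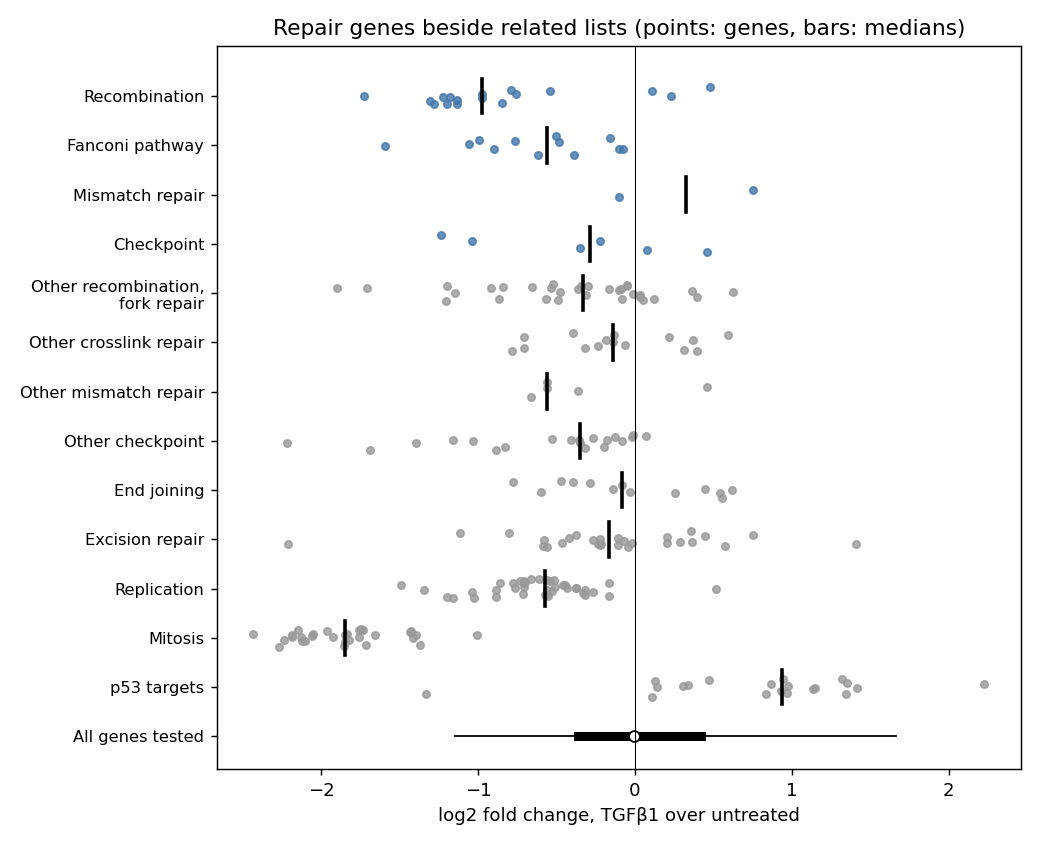
Log2 fold change after TGFβ1 of every tested gene of the members (blue) and of related lists (grey), with a black bar at each median, and for all genes tested a white point at the median, a thick bar over the middle 50% and a thin line from percentile 5 to 95. The recombination members centre at -0.98, the mitosis genes at -1.85, the p53 targets at 0.94 and all genes at -0.01.

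The promoters of members were searched on both strands for words of motifs known from cell cycle genes and from TGFβ response genes. The E2F words were TTTCCCGC, TTTCGCGC, TTTGCCGC and TTTGGCGC, the CHR words were TTTGAA and TTCGAA, the NF-Y word was CCAAT, and the SMAD words were GTCTAGAC and CAGACA. The RefSeq table held a window for 32 of the 37 members. Rad51d, Xrcc2, Rad54b, Exo1 and Fancd2 had none.

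An E2F word was present in 8 of the 32 members, against 4.23% of 10199 promoters of tested genes, and in 13 of 31 replication promoters. It occurred in 5 of 24 lower members and in 3 of the 8 others. Its 8 carriers were Bard1, Rad51c, Clspn, Brca2, Topbp1, Fancg, Chek2 and Msh6, and these include genes that fell, Fancg and Chek2, which were not called,, and the gene that rose most. The median log2 fold change was -0.57 in members with the word and -0.69 in those without.

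A CHR word was present in 4 of the 32, Bard1, Eme1, Polq and Atr, a share near the 13.6% of tested promoters. It was present in 19 of 26 mitosis promoters. All 4 carriers were lower, as were 24 of the 32 members with a window. NF-Y words were present in 20 of 32 members, against 39.4% of tested promoters, and occurred in 14 of 24 lower members and in 6 of the 8 others. They were also present in 19 of 31 replication, 19 of 26 mitosis and 9 of 16 p53 target promoters. SMAD words were present in 7 of 32, Rad51ap1, Brca1, Clspn, Brca2, Fancm, Fancc and Pms2, against 15.8% of tested promoters. These matches describe letters in the windows, and binding of a factor was not measured.

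**Figure D5:**
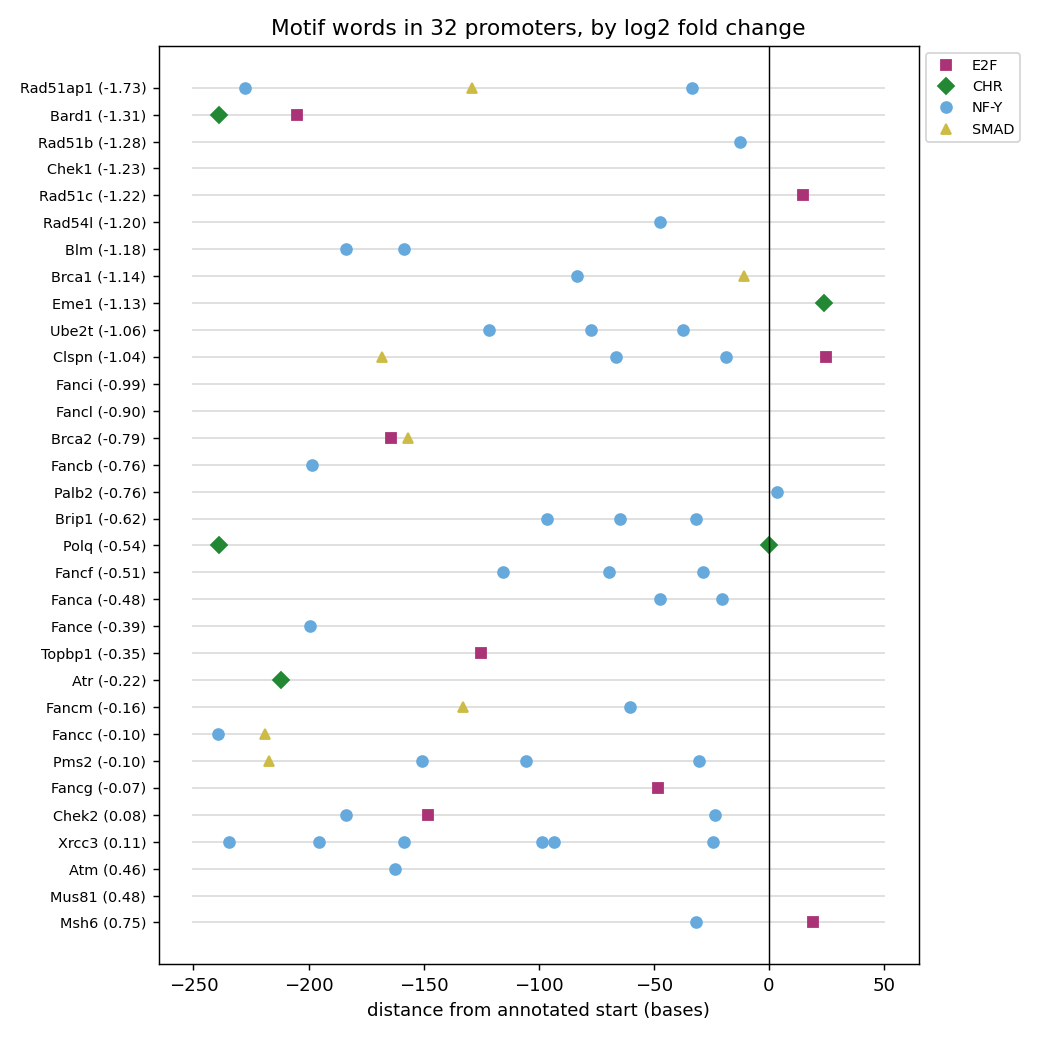
Position of E2F, CHR, NF-Y and SMAD words in the promoters of 32 members, in bases from the annotated start, with genes ordered by log2 fold change (in brackets) from the deepest fall at the top. E2F words appear at the top, in the middle and beside Msh6 at the bottom, and the 4 genes with a CHR word all have a negative change, as do most of the 32.

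Several members start close to another protein-coding gene on the opposite strand, which was looked at after the members' values had been seen. Such a start lay within 1000 bases for 15 members, and 12 of these neighbours were tested, of which 5 were higher, 5 lower and 2 not called, shares near the 37.6% higher and 38% lower over all genes. The neighbour was higher for 4 members that fell and lower for 3. Emc3 starts 30 bases from Fancd2 and went from 110.5 ± 4.69 CPM to 147 ± 0.788 CPM (log2 fold change 0.41), while Fancd2 was 3.01-fold lower. Nbr1 starts 194 bases from Brca1 and rose by 0.30, Dctn5 starts 56 bases from Palb2 and rose by 0.18, and Zfyve26 starts 978 bases from Rad51b and rose by 0.67. The reverse held for Atm, which rose while Npat, 307 bases away, was at -0.20. The neighbours that fell with a lower member were Mospd2, 217 bases from Fancb (log2 fold change -0.86), Mrpl27, 197 bases from Eme1 (-0.43), and Gas2, 252 bases from Fancf (-1.72).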

How the data were processed

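Reads of 75 bases from a stranded poly(A) kit were processed by the authors with bcl2fastq 2.20.0.422, STAR 2.7.3a and featureCounts 1.5.1, per the submitters' processing notes, on GRCm38/mm10. The annotation release and the strand setting are not given in the sources used here. The deposited table holds raw counts per gene, which were used as deposited.

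Groups came from the labels. In R 4.3.3 with edgeR 4.0.16, counts were filtered with filterByExpr, scaled by TMM and compared with glmFit and glmLRT, and 13818 genes were adjusted together. Quasi-likelihood, DESeq2 1.42.0, other scalings, filters and thresholds, a replicate block and each library left out were alternatives. Standard errors came from the fit. Partner ratios used CPM + 0.5 and an exact permutation test over libraries. Lengths and positions came from the annotation of GRCm38, and scripts were tested on simulated counts. In these libraries 3 counts correspond to 0.113 to 0.162 CPM, and intervals cover counting error and the spread between these samples only.

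The members and lists were chosen with earlier results of these data known. Every member could be named, and of other lists up to 5 called genes each way with an absolute log2 fold change over 1. Atrip was not analysed here.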

Additional observations from a re-analysis of the deposited data

Results flagged for a closer look

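In 4 of 74 groups of 4 libraries (each member in each condition), the highest or lowest library stood apart from the other 3 by Dixon's criterion, which chance meets in about 1 group in 20. In treated cells Blm was at 26.6 CPM in replicate 4, and at 25.7 CPM in each of the others. Fancl was at 18.0 CPM in untreated replicate 1, against 17.1 CPM in the others, and at 8.23 CPM in treated replicate 4, against 9.59 to 9.79 CPM. Ube2t was at 10.2 CPM in treated replicate 2, against 12.5 to 12.7 CPM. Each of these genes remained called lower with that library left out.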

How the results depend on the processing

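Across all alternatives that used all libraries, 28 to 30 members were lower and 4 were higher, and their median log2 fold change lay between -0.83 and -0.75. With a library left out, 27 to 28 members were lower, 4 to 5 higher, and the median lay between -0.82 and -0.74. Other repair genes were lower in 60 to 75 and higher in 21 to 23 (64 to 66 and 21 to 24 with a library left out), replication genes were lower in 38, mitosis genes in 30, and p53 targets were higher in 16 to 17. Of 333 member values under all-library alternatives 3 changed their call. With total counts Fancc (-0.17, FDR = 0.0494) and Pms2 (-0.17, FDR = 0.00406) were called lower, and so was Pms2 without a filter on low counts (-0.13, FDR = 0.0450). Of 296 values with a library left out 2 changed, those of Fancm and Chek2 given above. Total counts moved the median of all genes to -0.07, with 42.7% lower and 33.5% higher.

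Libraries with the same replicate number did not deviate together, with correlations from -0.193 to -0.0336, so the numbers were not taken as a pairing. With the replicate block 28 members were lower and 4 higher, other repair genes were lower in 66 and higher in 22, and the members' median was -0.77. A sign-flip test of the partner ratios over the 4 numbers cannot go below p = 0.125, and with a library left out the permutation test cannot go below p = 0.0571, so neither could pass. With pseudocounts of 0.1 and 2 CPM, 12 pairs kept an adjusted p under 0.05. Over all 27025 promoters of the table, rather than those of tested genes, the words were present in 2.32% (E2F), 19.4% (CHR), 37.9% (NF-Y) and 21.2% (SMAD). Depth limits Fancf, with 45 to 104 counts per library, more than the other members.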
